A study of Mus musculus with 8 samples.

Results

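A set of 8 genes of Leydig cell steroidogenesis was followed through the input and the anti-DAZL immunoprecipitate (IP) of XX and XY gonads. They were Star, Scarb1, Cyp11a1, Fdx1, Cyp17a1, Hsd3b1, Nr5a1 and Insl3, chosen by name, and every probe that the array files name for them was described. Of the 8 genes, 7 had a probe, with 13 probes of the 41101 analysed on the array, and 11 of the 13 passed the filter for testing. No probe was named Insl3, but 2 probes named Jak3 also list the Insl3 accession and are given apart as shared probes.

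RNA immunoprecipitation was performed on gonads of E14.5 embryos of strain MCH, in lots of 50 XX or XY gonads, and 5% of the starting material served as input. No genetic change or drug is given in the labels for any group, and the 4 groups (XX input, XX IP, XY input and XY IP) had 2 one-colour Agilent arrays each, with 50 ng of RNA labelled for each input and 1 ng for each IP. Because each lot pooled whole gonads, germ cells and somatic cells were measured together, and fewer cells of a type cannot be told apart from less RNA per cell. Nothing in the labels says that the 2 lots of a group were separate experiments, so p-values measure only the spread between these arrays. All XX arrays lay on 1 slide and all XY arrays on another, so the sexes cannot be told apart from their slides, while each IP was compared with inputs on its own slide.

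Fetal Leydig cells arise between the cords of the embryonic testis and make androgens from cholesterol. SCARB1 takes up cholesterol from lipoproteins, STAR moves it into the mitochondrion, and CYP11A1, supplied with electrons by the ferredoxin FDX1, cuts its side chain to give pregnenolone. HSD3B1 and CYP17A1 carry the product on toward androgens, the nuclear receptor NR5A1 is a regulator of these genes, and INSL3 is a Leydig cell hormone of testis descent. DAZL, the target of the antibody, is an RNA-binding protein of germ cells, whereas the genes described here are known mainly from steroid-making cells.

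Levels are log2 signals relative to the 75th percentile of each array, and a probe was called well above background by the scanner software. Between 16712 and 20390 probes were well above background on an input array, against 6067 to 9468 for an IP. The 75th percentile ranged from 77.4 to 173 scanner units for inputs and from 6.83 to 13.1 for IPs, so on this scale a dim probe sits higher on an IP array than on an input array. A change to or from a group not well above background is therefore given as at least so many fold. This bound is measured against the lowest signals well above background, and no fold is given where the higher group was itself at background. A p-value beside such a bound belongs to the fitted difference, which uses the values at background, and not to the bound. In the check of the precipitation, Dazl mRNA rose in the IP by 2.06 ± 0.39 on the log2 scale in XY and by 2.69 ± 0.39 in XX (limma adjusted p = 0.002 and 3.1e-04). Of the 12 germ cell genes listed, 5 were called higher in the XY IP and 0 lower, beside 10.2% and 7.68% of all probes tested. Xist was above background on both XX inputs and on no XY array, and Ddx3y, Eif2s3y and Kdm5d were above background on both XY inputs and on no XX array.

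Before the levels, the available promoters are shown because the genes are known as targets of NR5A1. Of the 5 genes called higher in the XY input below, only Hsd3b1 and Cyp11a1 have an entry. Whether NR5A1 has a part in the sex difference was not tested. The promoter table used, on GRCm38.p6, held 5 entries for 4 of the 8 genes, namely Hsd3b1, Insl3, Fdx1 and 2 starts of Cyp11a1. This table held no entry for Star, Scarb1, Cyp17a1 or Nr5a1, so their promoters were not searched. The 250 bases before each transcript start are printed 5′ to 3′ on the strand of the gene. Capitals mark the letters CAAGG, the core of an NR5A1 element, or the same letters read from the other strand.

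Hsd3b1 (chr3:98859795-98860044, - strand): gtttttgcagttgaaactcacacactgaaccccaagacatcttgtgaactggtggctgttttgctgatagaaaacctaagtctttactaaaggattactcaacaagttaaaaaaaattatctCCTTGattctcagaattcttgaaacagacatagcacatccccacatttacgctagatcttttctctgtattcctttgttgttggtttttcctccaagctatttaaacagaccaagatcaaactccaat
Insl3 (chr8:71689002-71689251, + strand): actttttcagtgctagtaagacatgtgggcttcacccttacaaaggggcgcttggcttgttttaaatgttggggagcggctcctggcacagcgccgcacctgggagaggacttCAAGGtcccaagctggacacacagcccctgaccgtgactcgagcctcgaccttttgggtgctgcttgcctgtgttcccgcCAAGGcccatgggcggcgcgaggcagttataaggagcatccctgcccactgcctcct
Fdx1 (chr9:51963603-51963852, - strand): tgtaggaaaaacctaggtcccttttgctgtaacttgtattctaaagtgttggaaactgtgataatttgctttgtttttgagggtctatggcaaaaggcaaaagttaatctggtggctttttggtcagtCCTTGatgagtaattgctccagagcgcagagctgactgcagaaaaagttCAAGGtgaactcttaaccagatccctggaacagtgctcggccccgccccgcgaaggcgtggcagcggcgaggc
Cyp11a1, first start (chr9:57997774-57998023, + strand): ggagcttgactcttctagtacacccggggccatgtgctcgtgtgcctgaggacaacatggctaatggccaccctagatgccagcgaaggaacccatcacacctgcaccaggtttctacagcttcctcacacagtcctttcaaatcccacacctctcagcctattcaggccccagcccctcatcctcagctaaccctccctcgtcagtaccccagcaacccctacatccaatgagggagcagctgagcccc
Cyp11a1, second start (chr9:58014702-58014951, + strand): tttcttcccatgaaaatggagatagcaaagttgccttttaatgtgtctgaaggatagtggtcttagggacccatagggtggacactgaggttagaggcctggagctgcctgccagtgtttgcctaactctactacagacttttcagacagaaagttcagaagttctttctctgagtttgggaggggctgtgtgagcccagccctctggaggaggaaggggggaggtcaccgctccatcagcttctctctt

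The core CAAGG was found in 3 of these 5 entries, and in 46.0% of all 32851 entries of the table over the same 250 bases. Insl3 held the core at -137 and at -57 (first base, counted back from the start), Fdx1 at -73 and, from the other strand, at -122, and Hsd3b1 at -128 from the other strand. Neither Cyp11a1 entry held it. The longer form CAAGGNC, which contains the core, was found in 2 of the 5 entries, those of Insl3 and Fdx1, and in 15.0% of the table. The full element CAAGGTCA was in 0 of the 5 and in 1.33% of the table. These are matches of letters in a short window, searched on both strands.

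Most of the steroidogenesis genes were higher in the XY input than in the XX input. Of the 7 genes with a probe, all 7 were above background on both XY inputs and 4 on both XX inputs. With 1 leading probe per gene (the probe of the highest mean over the 8 arrays), 5 of the 7 were called higher in the XY input, at a limma adjusted p under 0.05, and 0 lower. Among all 18263 probes tested 6.1% were called higher and 5.87% lower. The leading probes of Star, Cyp11a1 and Nr5a1 passed the filter for testing through the XY input alone. For Star and Cyp11a1 that is the higher group, so their calls are not independent of the filter. The median log2 difference was 4.45 for the 7 genes and 0.0029 for all probes tested. With normexp background correction 3 of the 7 were called higher, with Scarb1 and Cyp11a1 lost, and with scaling to the 50th percentile 4. With only probes above background on all arrays, which leaves Fdx1 alone, it was 0.

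**Figure D1:**
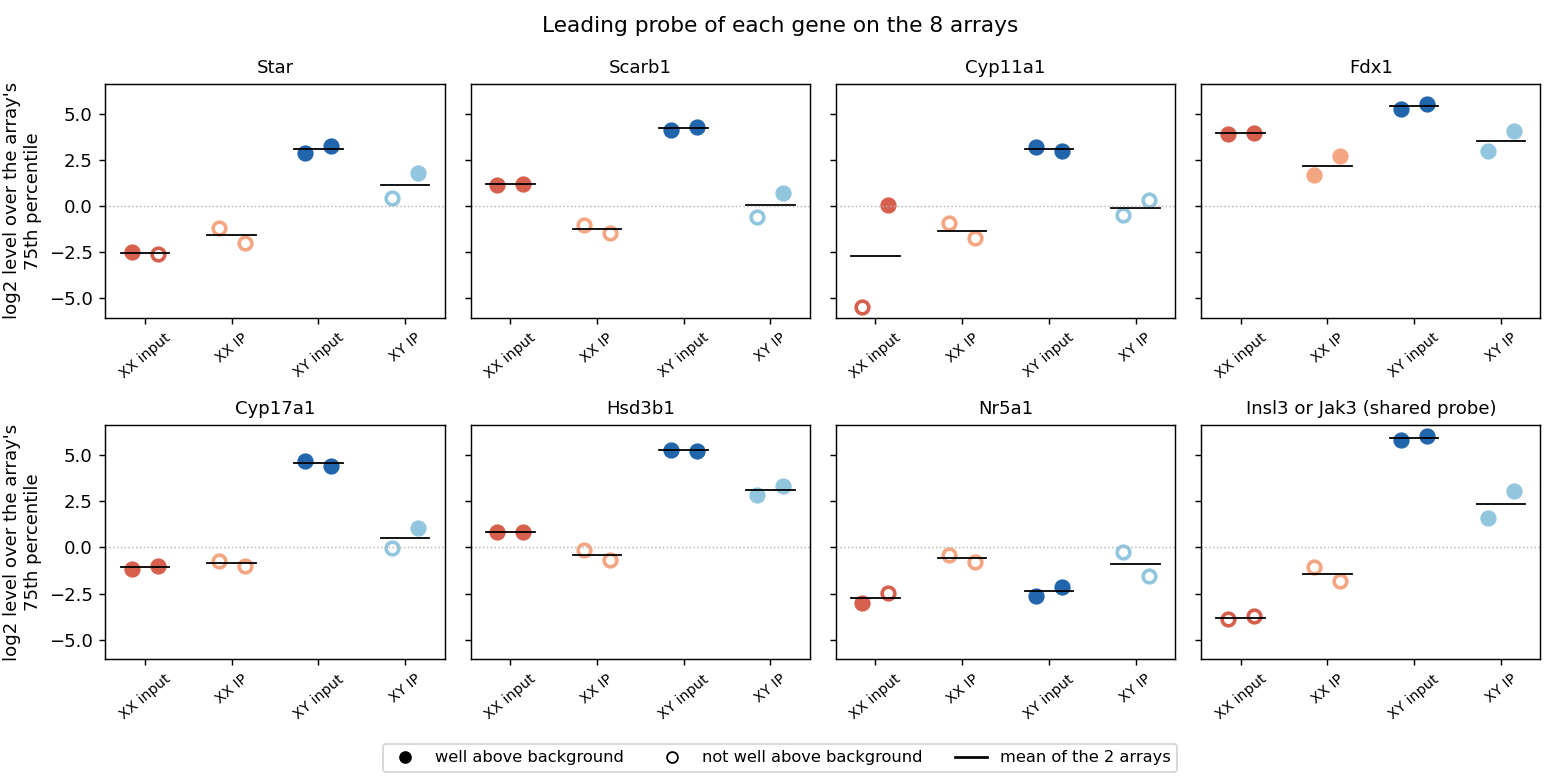
Log2 level over the array's 75th percentile (vertical axis) for the leading probe of each gene on each of the 8 arrays. Filled points are well above background, open points are not, and lines are group means. The XY inputs of every gene but Nr5a1 lie above the XX inputs, and only Fdx1, Hsd3b1 and the shared Insl3 or Jak3 probe are filled on both XY IPs.

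For cholesterol uptake, Scarb1 (chromosome 5, 125566267 to 125566326 on mm8, the build of the array files) was measured on all 4 inputs. Its log2 level was 1.18 and 1.20 in the XX inputs and 4.14 and 4.31 in the XY inputs. The sexes did not overlap, and the XY input was 8.22-fold higher (log2 difference 3.04 ± 0.47, SE; limma adjusted p = 0.00107).

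Star, which delivers cholesterol to the inner mitochondrial membrane, had 2 probes on chromosome 8. The leading probe (27279808 to 27279867) read -2.48 and -2.57 in the XX inputs, with only the first above background, and 2.91 and 3.28 in the XY inputs. The other probe (27280533 to 27280592) read -3.09 and -3.14, again with only the first above background, and 2.98 and 3.20. The sexes did not overlap at either probe. The fitted log2 differences were 5.62 ± 0.50 and 6.21 ± 0.56 (limma adjusted p = 2.9e-05 and 3.02e-05), and both rest in part on an XX input at background.

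Cyp11a1, the side-chain cleavage enzyme, had 3 probes on chromosome 9 that disagreed in the XX inputs. The leading probe (57824404 to 57824874) read 3.22 and 2.99 in the XY inputs, but -5.49 and 0.08 in the XX inputs, where only the second was above background. This 1 array gave an SD of 3.94 in the XX input, and the log2 difference was 5.81 ± 1.23 (limma adjusted p = 0.0082). Without the first XX input it was 3.03, and without the second the remaining XX value was at background, so no difference is given. The call was lost with normexp background correction, quantile normalization, each other percentile scaling and a fit of the inputs alone (limma adjusted p = 0.0506 to 0.0828).

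The second Cyp11a1 probe (57823695 to 57824232) read -4.17 and -4.48 in the XX inputs, neither above background, and 2.59 and 2.41 in the XY inputs. By this probe, which entered the test through the XY input alone, the XY input was at least 44.3-fold higher (limma adjusted p = 2.79e-06 for the fitted difference). The second XX input thus stood apart at 1 Cyp11a1 probe and not at the other. The remaining probe (57819930 to 57819989), designed on an adrenal cDNA, was not above background on any of the 8 arrays and was not tested.

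Fdx1, which is also the electron donor of other mitochondrial enzymes, was the gene of the group with the highest share of detected arrays. Its leading probe (chromosome 9, 51700991 to 51701050) was above background on all 8 arrays, with 3.93 and 3.99 in the XX inputs and 5.30 and 5.55 in the XY inputs. The groups did not overlap, but the log2 difference of 1.46 ± 0.48 did not pass the test (limma adjusted p = 0.075). It passed when either XY IP was left out of the fit (limma adjusted p = 0.0308) and when only the inputs were fitted (limma adjusted p = 0.00237). It also passed with quantile normalization (limma adjusted p = 0.0351) and with the 75th percentile taken over probes above background on all arrays (limma adjusted p = 0.0191). Of the other 2 probes, the one at 51695771 to 51695830 read 2.64 and 2.97 against 5.13 and 5.34 and was called higher in XY (2.43 ± 0.54, limma adjusted p = 0.0105). The one at 51700971 to 51701030 read 2.75 and 2.90 against 4.44 and 4.59 and was not called (1.69 ± 0.70, limma adjusted p = 0.157).

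Cyp17a1, which makes androgen precursors, was measured on all 4 inputs (chromosome 19, 46721415 to 46722028). It read -1.17 and -0.98 in the XX inputs and 4.70 and 4.44 in the XY inputs. The XY input was 49.9-fold higher (log2 difference 5.64 ± 0.44, limma adjusted p = 1.17e-05).

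Hsd3b1, the dehydrogenase and isomerase that acts on pregnenolone, was also measured on all 4 inputs (chromosome 3, 98981468 to 98981527). It read 0.83 and 0.82 in the XX inputs and 5.30 and 5.25 in the XY inputs, a 21.9-fold difference (log2 4.45 ± 0.40, limma adjusted p = 3.04e-05). The gene was above background on both XX inputs and on neither XX IP.

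Nr5a1 did not share the pattern. Its leading probe (chromosome 2, 38515510 to 38515569) read -2.99 and -2.47 in the XX inputs, the first above background, and -2.61 and -2.16 in the XY inputs, both above background. The sexes overlapped, and the log2 difference was 0.34 ± 0.48 (limma adjusted p = 0.763). The other probe (38523448 to 38523507) was above background on 1 array, the second XY input at -2.22, and was not tested. Both probes were close to the lowest signals counted as above background, so a modest difference was not detectable with them.

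The 2 probes shared by Insl3 and Jak3 lie on chromosome 8 at 74619398 to 74619457 and at 74619175 to 74619234. The first read -3.91 and -3.71 in the XX inputs, neither above background, and 5.83 and 6.08 in the XY inputs. The XY input was at least 486-fold higher (limma adjusted p = 1.43e-06), the largest bound among the probes described here. The other shared probe read -4.73 and -3.67 against 3.79 and 3.76, at least 107-fold higher (limma adjusted p = 2.78e-06). Both shared probes passed the filter for testing through XY groups alone. Another Jak3 probe (74615916 to 74616241), with no Insl3 accession, was not above background on either XY input and read -3.41 and -2.53 there. It was above background on 1 XX input and on the first XY IP, where it read 2.36 against -1.95 on the second, and was not tested. Which of the 2 genes the shared probes measured cannot be told apart from the files.

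In the XY IP, 3 of the steroidogenesis genes were lower than in the input and none was higher. The question was whether these mRNAs came down with DAZL beyond their level in the lysate. Of the 7 leading probes, 0 were called higher in the XY IP and 3 were called lower, at a limma adjusted p under 0.05 and at least 4-fold, namely Scarb1, Cyp17a1 and Hsd3b1. Without the first XY IP 2 were called lower and 0 higher, and without the second 5 were called lower and 1 higher. The 1 higher was Nr5a1, which was not above background on either XY IP. The number called lower was 6 with scaling to the 50th percentile. That scaling called 8379 of all 18263 tested probes lower and moved their median log2 difference to -1.90. The number was also 6 with normexp and outlying local backgrounds replaced (1942 of all probes lower). It was 5 with the 75th percentile taken over probes above background on all arrays (2184 of all probes lower). In the main fit 1403 of all probes were called lower. Of the 7 genes, 0 were called lower when only probes above background on all arrays were tested, which leaves Fdx1 alone. Among all probes tested, 10.2% were called higher and 7.68% lower. The median log2 difference was -2.18 for the 7 genes and -0.03 for all probes tested.

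The fall has to be read beside the level in the input. Among the 3046 tested probes with a mean log2 level of at least 3 in the XY input, as 6 of the 7 leading probes had, 18.7% were called lower, 8.57% higher, and the median log2 difference was -0.86. Among the 5480 probes above background on all 4 XY arrays, 5.82% were called lower and 19.5% higher. Of the 7 genes, 2 were above background on both XY IPs, 3 on 1 XY IP and 2 on neither.

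**Figure D2:**
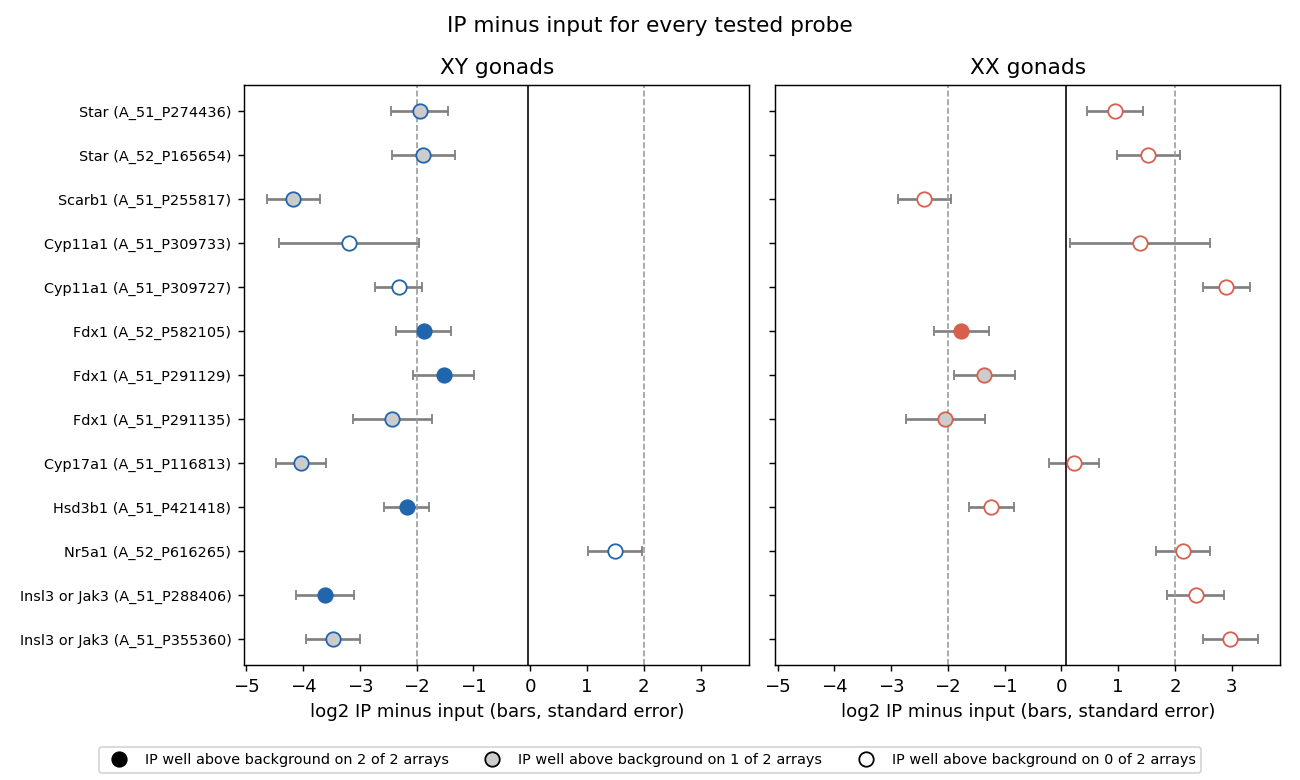
Log2 IP minus input (horizontal axis, with standard errors) for each tested probe in XY and XX gonads. The solid line is the median of all tested probes and the dashed lines are 4-fold; filled, grey and open points were above background on 2, 1 and 0 IP arrays. All XY points but Nr5a1 lie left of the median, while 10 of the 13 XX points are open.

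Scarb1 and Cyp17a1 were called lower with 1 of the 2 XY IPs at background, so their fitted differences rest in part on a background value. Scarb1 read 4.14 and 4.31 in the XY inputs and -0.59 and 0.70 in the XY IPs, with only the second IP above background. The log2 difference was -4.17 ± 0.47 (limma adjusted p = 9.97e-05). Cyp17a1 read 4.70 and 4.44 in the inputs and -0.01 and 1.07 in the IPs, again with only the second IP above background. Its log2 difference was -4.03 ± 0.44 (limma adjusted p = 9.06e-05).

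Hsd3b1 was above background on both XY IPs, so its fall was measured on both sides. It read 5.30 and 5.25 in the inputs and 2.87 and 3.33 in the IPs, which is 4.52-fold lower in the IP (log2 difference -2.18 ± 0.40, limma adjusted p = 0.00162). Without the first XY IP its log2 difference was -1.94, short of 4-fold.

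Star and Fdx1 passed the p limit and fell just short of 4-fold. The leading Star probe read 2.91 and 3.28 in the XY inputs and 0.46 and 1.83 in the XY IPs, where only the second was above background, and its log2 difference was -1.95 ± 0.50 (limma adjusted p = 0.00951). The other Star probe gave -1.88 ± 0.56 (limma adjusted p = 0.0188), with 0.29 and 2.13 in the IPs. For both probes the spread between the 2 IPs was wide.

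The leading Fdx1 probe read 5.30 and 5.55 in the XY inputs and 3.00 and 4.11 in the XY IPs, all above background, a log2 difference of -1.87 ± 0.48 (limma adjusted p = 0.00992). The other Fdx1 probes gave -1.53 ± 0.54 and -2.43 ± 0.70 (limma adjusted p = 0.0395 and 0.0162), so that 1 of the 3 probes was called lower. That probe read 0.88 and 3.30 in the IPs, the widest spread among the Fdx1 probes, and only its second IP was above background. The second XY IP was the brighter of the pair at each Scarb1, Cyp17a1, Hsd3b1, Star and Fdx1 probe, and it also had more probes above background (9468 against 6067).

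Cyp11a1 was not above background on either XY IP with any probe. Its leading probe read 3.22 and 2.99 in the XY inputs and -0.50 and 0.33 in the XY IPs, at least 5.60-fold lower, but the fit gave a limma adjusted p of 0.0561. That fit shares its error with the XX inputs, where this probe was split, and without either XX input the limma adjusted p was 0.00023. The second probe read 2.59 and 2.41 against 0.23 and 0.14, at least 3.95-fold lower, and was called (limma adjusted p = 0.00137).

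For Nr5a1 no fold or direction is given, because neither XY IP was above background. The leading probe read -0.26 and -1.53 in the XY IPs against -2.61 and -2.16 in the XY inputs. The fitted log2 difference was 1.49, became -0.37 when the arrays were scaled to their 50th percentile, and was 0 with a common floor for dim values.

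The shared Insl3 or Jak3 probes were lower in the XY IP as well. The first read 5.83 and 6.08 in the inputs and 1.60 and 3.09 in the IPs, all above background, and was 12.2-fold lower in the IP (log2 difference -3.61 ± 0.51, limma adjusted p = 0.000353). The second read 3.79 and 3.76 against 0.10 and 0.51, with the second IP above background (-3.47 ± 0.48, limma adjusted p = 0.00031).

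**Figure D3:**
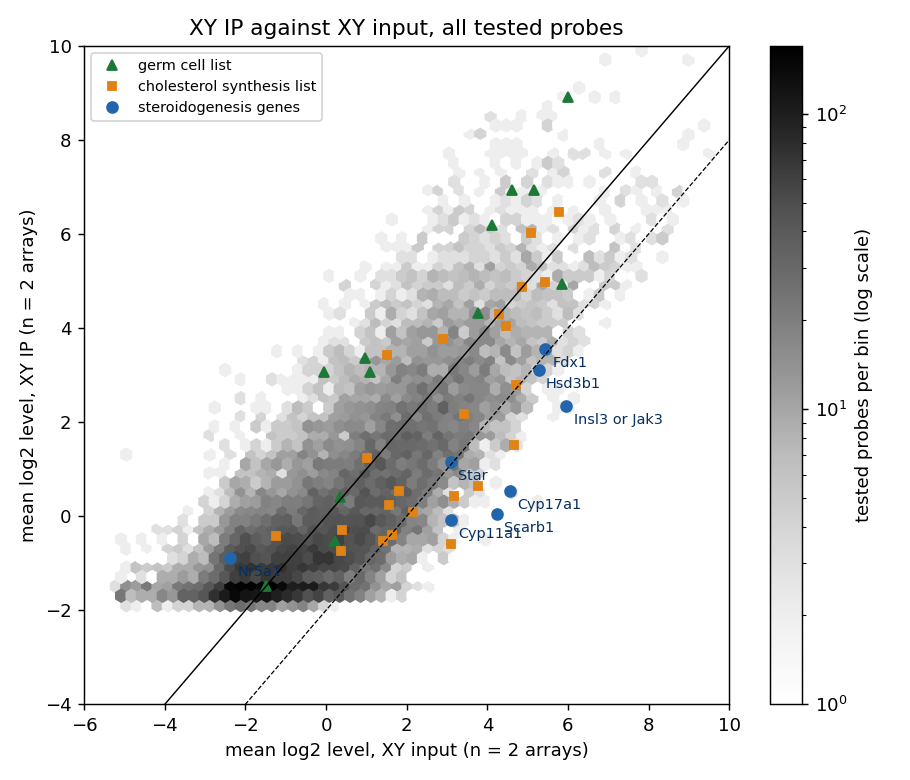
Mean log2 level in the XY IP (vertical axis) against the XY input (horizontal axis), n = 2 arrays each, with all tested probes as grey bins. The solid line marks equal levels and the dashed line a 4-fold lower level in the IP. The steroidogenesis genes other than Nr5a1 lie near or under the dashed line, whereas several germ cell genes lie above the solid line and the cholesterol synthesis genes spread over both.

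In XX gonads most of these genes gave no usable IP value. Of the 7 genes, 1 (Fdx1) was above background on both XX IPs and the other 6 on neither. Scarb1 was the only leading probe called lower, with 1.18 and 1.20 in the XX inputs and -1.0 and -1.46 in the XX IPs. Its call rests on a fitted log2 difference of -2.42 ± 0.47 from IPs at background (limma adjusted p = 0.0015). The bound, which was not tested, is at least 1.45-fold lower. Nr5a1 was the only one called higher, but it was not above background on either XX IP (-0.42 and -0.76) and on only 1 XX input, so no fold is given. The Nr5a1 call was lost without the first XX input or the first XX IP, with either normexp correction, with quantile normalization, with each other percentile scaling and with a common floor for dim values. The Scarb1 call was lost with either normexp correction and with the common floor. Among all probes tested, 14.1% were called higher and 9.91% lower in XX.

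Fdx1, whose leading probe was above background on all arrays, gave close differences between IP and input in the 2 sexes. Its leading probe read 3.93 and 3.99 in the XX inputs and 1.70 and 2.71 in the XX IPs, a log2 difference of -1.76 ± 0.48 (limma adjusted p = 0.0108), under 4-fold. Of the other 2 probes, the one at 51700971 read 0.02 and 1.54 in the XX IPs and was called lower (-2.05 ± 0.70, limma adjusted p = 0.0292), and the one at 51695771 read 0.87 and 2.02 and was not called (-1.36 ± 0.54, limma adjusted p = 0.0538). Each of these 2 was above background on 1 of the XX IPs. For the leading probe the difference between the sexes in IP over input was 0.11 ± 0.69 (limma adjusted p = 0.964). Hsd3b1 read -0.13 and -0.69 in the XX IPs against 0.83 and 0.82 in the XX inputs, and was at least 1.13-fold lower, not called at 4-fold (limma adjusted p = 0.0236).

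The difference between the sexes in IP over input was called for 2 of the 7 leading probes, Cyp17a1 and Star, both toward a higher XX value, beside 2.18% of all probes tested called higher and 1.12% lower. In both cases the XX IPs were at background, as was 1 XX input for Star, so the XX side of the difference is no measurement of recovery. Cyp17a1 read -0.72 and -1.0 in the XX IPs, and Star -1.18 and -1.99.

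The other genes of the pathway were taken from fixed lists. In the list of 37 other steroid pathway genes, 29 were tested, and 5 were called higher and 2 lower in the XY input, beside 6.1% and 5.87% of all probes tested, with a median log2 difference of 0.24. The 5 were Hsd17b3, Hsd17b1, Inha, Hsd3b6 and Nr4a1. Hsd17b3, which makes testosterone from androstenedione, read -4.82 and -4.42 in the XX inputs, neither above background, and 2.02 and 1.79 in the XY inputs, at least 29.3-fold higher (limma adjusted p = 3.5e-06). Hsd17b1 was at least 22.7-fold higher in XY, with 1.63 and 1.45 there. Inha, the inhibin alpha subunit, read 0.93 and 0.78 against 3.90 and 3.94. The 2 lower genes were Akr1c14 and the transcription factor Gata6, which read 3.48 and 3.63 in the XX inputs and 2.10 and 2.03 in the XY inputs.

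In the XY IP, 3 of the 29 tested steroid pathway genes were called higher and 5 lower, beside 10.2% and 7.68% of all probes tested, and the median was -0.34. Inha had the lowest value, at least 11.0-fold lower in the XY IP (-0.64 and -0.57, neither above background; limma adjusted p = 0.00021). Fdxr, the reductase that passes electrons to FDX1, was not among the largest changes but was called lower with all 4 XY arrays above background. Its log2 level was 4.57 and 4.64 in the XY inputs and 2.09 and 2.96 in the XY IPs. Fdxr was called lower in the XX IP as well (-2.25 ± 0.46, limma adjusted p = 0.00218). In the XX IP, 6 of the 29 were called higher and 7 lower, beside 14.1% and 9.91% of all probes tested. Of the 6, 1 was above background on both XX IPs, and of the 7, 0 were.

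Of the 3 called higher, 2 were above background on both XY IPs. Prkar1a, a regulatory subunit of protein kinase A, through which luteinizing hormone signals, was above background on all 8 arrays. It read 2.11 and 2.16 in the XY inputs and 4.73 and 5.12 in the XY IPs (2.79 ± 0.40, limma adjusted p = 0.0004), and 1.97 and 1.98 against 4.33 and 4.98 in XX. Hsd11b1, which interconverts cortisone-type and cortisol-type glucocorticoids, read -3.16 and -3.42 in the XY inputs, neither above background, and 2.27 and 2.68 in the XY IPs, at least 41.5-fold higher (limma adjusted p = 1.3e-05). In XX neither its inputs nor its IPs were above background.

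**Figure D4:**
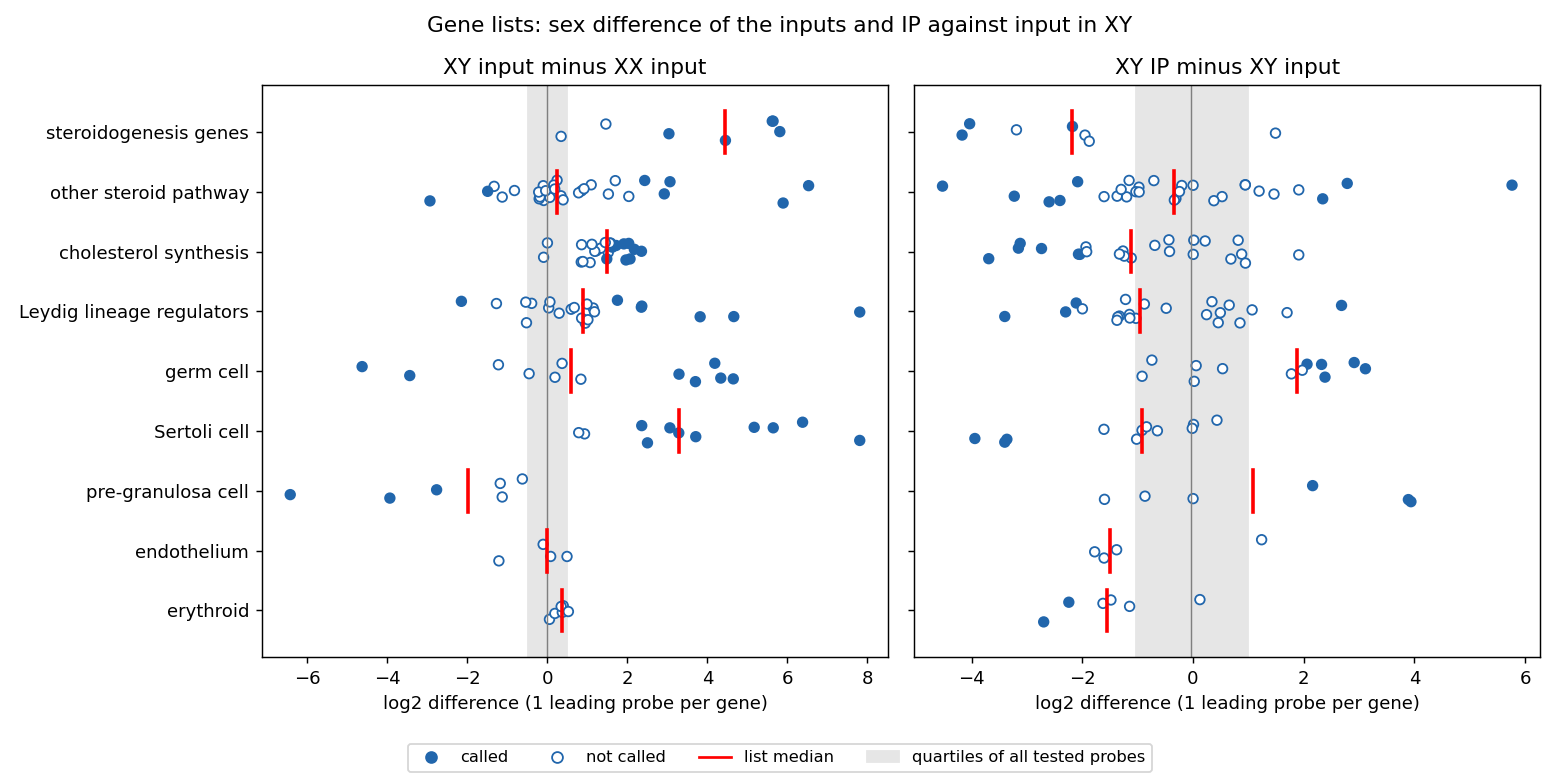
Log2 difference of XY input minus XX input (left) and XY IP minus XY input (right) for 1 leading probe per gene in each list. Filled points were called, red bars are list medians, and the grey band spans the quartiles of all tested probes. Of the lists drawn, the steroidogenesis genes have the highest median on the left (4.45) and the lowest on the right (-2.18). The adrenal cortex list, with 2 tested genes and a median of -2.22 on the right, is not drawn.

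Of 23 genes of cholesterol synthesis, which supplies the substrate, all were tested, 10 were called higher in the XY input and 0 lower, beside 6.1% and 5.87% of all probes tested, and the median log2 difference was 1.49. Called genes included Lss (2.35 ± 0.45, limma adjusted p = 0.00422), Fdps (2.18 ± 0.44, limma adjusted p = 0.0062) and Dhcr7 (2.07 ± 0.48, limma adjusted p = 0.0142). In the XY IP, 6 of the 23 were called lower and 0 higher, beside 7.68% and 10.2% of all probes tested, with a median of -1.11, and 11 were above background on both XY IPs. The pathway was uneven. Dhcr7, a late reductase of the pathway, read 4.63 and 5.09 in the XY inputs and 4.32 and 5.40 in the XY IPs, and Msmo1 read 5.36 and 5.49 against 4.47 and 5.51. For both genes the input and IP values overlapped. Tm7sf2, in contrast, read 3.03 and 3.17 in the XY inputs and -1.05 and -0.13 in the XY IPs, neither above background, at least 6.20-fold lower (limma adjusted p = 0.000264). Ebp fell with all 4 XY arrays above background, from 4.54 and 4.79 to 0.95 and 2.08 (limma adjusted p = 0.000358). In the XX IP, 2 of the 23 were called lower and 0 higher, beside 9.91% and 14.1% of all probes tested. Ebp was among them, at least 5.76-fold lower with neither XX IP above background.

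Among 24 regulators of the Leydig lineage, 22 were tested, 6 were called higher in the XY input and 1 lower, beside 6.1% and 5.87% of all probes tested, with a median of 0.90. Dhh, the Sertoli cell ligand that drives Leydig cell differentiation, read -3.70 and -2.81 in the XX inputs, neither above background, and 4.43 and 4.68 in the XY inputs, at least 183-fold higher (limma adjusted p = 7.1e-06). Its receptor Ptch1 and the ligand-binding Hhip, both targets of the same pathway, were at least 3.81-fold and 6.51-fold higher. Gli2 and Jag1 were also called higher, and Cdkn1c was the 1 called lower.

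In the XY IP, 1 of these 22 regulators was called higher and 3 lower, beside 10.2% and 7.68% of all probes tested, and the median was -0.95. The 1 was Ptch1, with -1.16 and -0.91 in the XY inputs and 1.31 and 1.99 in the XY IPs, all above background (2.68 ± 0.44, limma adjusted p = 0.000829). Dhh read 0.33 and 1.97 in the XY IPs, the second above background, and fell (-3.40 ± 0.56, limma adjusted p = 0.000887). In the XX IP, 3 of the 22 were called higher and 5 lower, beside 14.1% and 9.91% of all probes tested.

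The adrenal cortex shares steroid enzymes with Leydig cells, so its own genes were examined beside these results. Of the 6 genes listed, 5 had a probe. Their mean log2 level was -3.15 and -2.40 on the XX inputs and -2.01 and -2.09 on the XY inputs. Cyp21a1 and Cyp11b2 were not above background on any array, and Mc2r was above background on 1 XX input and 1 XY input. Akr1b7 was above background on all 4 inputs and higher in XY (-1.69 and -2.01 against 1.51 and 1.42, limma adjusted p = 0.00166), and Mrap read -0.10 and -0.09 against 0.92 and 0.82 and was not called.

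Other cell types differed between the sexes together with the steroidogenesis genes, and their part in the sex difference was not tested. Over all probes tested, 6.1% were called higher and 5.87% lower between the inputs, and 10.2% and 7.68% in the XY IP. Of 11 Sertoli cell genes, 9 were called higher in the XY input, with a median of 3.29, and the mean log2 level of the list was -1.95 and -1.65 on the XX inputs against 2.02 and 1.96 on the XY inputs. Of 12 germ cell genes, 5 were called higher in the XY input and 2 lower, with a median of 0.60, and the mean level was 1.50 and 1.63 on the XX inputs against 2.46 and 2.64 on the XY inputs. Of 6 tested pre-granulosa genes, 3 were called lower, with a median of -1.97, and the mean level of all 9 listed was 0.71 and 0.69 against -1.51 and -1.50. Of 4 tested endothelial and 6 tested erythroid genes, 0 were called in either direction, with medians of -0.01 and 0.36. In the XY IP, 3 of the 11 Sertoli cell genes were called lower and 0 higher (median -0.92), and 2 of the 6 erythroid genes were called lower and 0 higher (median -1.55). Of the 6 tested pre-granulosa genes, 3 were called higher in the XY IP and 0 lower (median 1.08), and 1 of these 3, Lef1, was above background on both XY IPs. Of the 4 tested endothelial genes, 0 were called in the XY IP (median -1.49).

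The genes whose 8-array pattern was most like that of the steroidogenesis genes were found by correlation with the mean centred profile of the 7 leading probes. This profile was 2.43 and 2.53 in the XY inputs, -0.14 and 0.55 in the XY IPs, -1.74 and -0.84 in the XX inputs and -1.23 and -1.55 in the XX IPs. Of 11704 named genes with a probe above background on both XY inputs, the 10 with the highest Pearson correlation over the 8 arrays were Pdyn (0.99), Tesc (0.99), Alas1 (0.99), Ptgds (0.98), Trim47 (0.98), Hspa1a (0.98), Defb19 (0.98), Tmem119 (0.98), Kazald1 (0.98) and Pdlim3 (0.98). The 8 arrays share slides by sex, so each value describes 4 groups rather than 8 independent points. Pdyn, which encodes opioid peptides, had mean log2 levels of -0.39 (XX input), -1.06 (XX IP), 4.50 (XY input) and 1.65 (XY IP). Tesc and Ptgds are also on the Sertoli cell list, and Alas1, the first enzyme of haem synthesis, had means of -0.88, -0.94, 1.58 and -0.05 in the same order.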

How the data were processed

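Input and anti-DAZL precipitated RNA of E14.5 XX and XY gonads was measured on 8 one-colour Agilent arrays. The deposited scanner files give processed signal intensity per spot, made per the file headers by Feature Extraction 9.5.3.1, which subtracts background but does not normalize between arrays. The deposited table holds log2 values that the authors made by setting values under 1 to 1 and scaling to the 75th percentile, and it was used as an alternative.

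Outlier spots were dropped, a floor of 1 was applied, replicate spots were averaged, and log2 signal was taken relative to the 75th percentile. Of 41174 probes, 73 were outliers throughout an array. The 18263 probes well above background in some group on both of its arrays were tested with limma 3.58.1 (R 4.3.3), with 1 mean per group over all 8 arrays, two-sided, with Benjamini-Hochberg adjustment over all of them. IP contrasts were called at an adjusted p under 0.05 and at least 4-fold, and the others at an adjusted p under 0.05. The procedure was tested on simulated data. Precision is limited by the 2 arrays in each group. No control-antibody IP was among the arrays, so recovery is relative to input only. Names came from the accession, symbol or older symbol in the files through GRCm38.p6, which was used for names and promoters only. No mm8 annotation was used, so exons are not given.

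All probes of the 8 genes were described. A leading probe has the highest mean over 8 arrays. From the lists, genes called between the inputs and the 5 largest changes in each IP contrast could be named, besides the 10 most alike in pattern. Fdxr falls outside that rule and was chosen after its values were seen. The adrenal cortex genes Cyp21a1, Cyp11b2 and Mc2r, which were not tested, also fall outside it. The genes and lists were chosen with earlier results of these data known. Same-numbered samples were not taken as pairs: the correlation of their deviations from group means over 4205 probes was 0.03 between XX input and IP, 0.14 between XY input and IP and 0.52 between the inputs. Alternatives covered background correction, scaling, filters, the arrays fitted, a replicate block and leaving out each array.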

Additional observations from a re-analysis of the deposited data

Results flagged for a closer look

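The difference between the sexes in IP over input (XX minus XY, log2) passed the test of the difference itself for 6 of the 13 tested probes described here. It was 4.25 ± 0.62 for Cyp17a1 (limma adjusted p = 0.0054). For Star it was 2.89 ± 0.71 and 3.41 ± 0.79 (limma adjusted p = 0.048 and 0.0374), and for the second Cyp11a1 probe 5.22 ± 0.58 (limma adjusted p = 0.00155). The shared Insl3 or Jak3 probes gave 5.97 ± 0.72 and 6.45 ± 0.67 (limma adjusted p = 0.00209 and 0.00152). At none of these 6 probes was an XX IP above background, and of the 6 only Cyp17a1 was above background on both XX inputs. With a common floor for dim values the XX IP and input were level at the floor at Cyp17a1, the leading Star probe and the leading shared probe. The differences of 3.52, 1.67 and 3.61 left there restate the XY fall and are no measure of a sex difference in recovery.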

How the results depend on the processing

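Counts are of probes called higher and lower, with those of the 7 genes in parentheses. They were 1861 and 1403 (0 and 3 of the 7 genes) in the XY IP comparison, 2566 and 1810 (1 and 1 of the 7 genes) in the XX IP comparison, 1114 and 1072 (5 and 0 of the 7 genes) in the comparison of inputs and 398 and 204 (2 and 0 of the 7 genes) in the difference between the sexes. With normexp background correction, they were 21 and 801 (0 and 4) in the XY IP comparison, 69 and 2088 (0 and 1) in the XX IP comparison, 194 and 404 (3 and 0) in the comparison of inputs and 0 and 0 (0 and 0) in the difference between the sexes. With normexp and outlying local backgrounds replaced, they were 70 and 1942 (0 and 6) in the XY IP comparison, 69 and 2088 (0 and 1) in the XX IP comparison and 146 and 130 (4 and 0) in the difference between the sexes. With quantile normalization, they were 1241 and 2478 (0 and 4) in the XY IP comparison, 1479 and 3286 (0 and 1) in the XX IP comparison, 682 and 791 (5 and 0) in the comparison of inputs and 491 and 423 (1 and 0) in the difference between the sexes. With the 75th percentile taken over probes above background on all arrays, they were 1256 and 2184 (0 and 5) in the XY IP comparison, 1672 and 2859 (0 and 2) in the XX IP comparison and 353 and 231 (1 and 0) in the difference between the sexes. With scaling to the 50th percentile, they were 219 and 8379 (0 and 6) in the XY IP comparison, 189 and 8643 (0 and 3) in the XX IP comparison, 545 and 510 (4 and 0) in the comparison of inputs and 18 and 9 (0 and 0) in the difference between the sexes. Without a filter on dim probes, they were 22372 and 1409 (0 and 4) in the XY IP comparison, 23327 and 1811 (1 and 1) in the XX IP comparison, 631 and 549 (5 and 0) in the comparison of inputs and 46 and 28 (1 and 0) in the difference between the sexes. With only probes above background on all arrays, which leaves Fdx1 alone, they were 841 and 231 (0 and 0) in the XY IP comparison, 1040 and 373 (0 and 0) in the XX IP comparison, 72 and 129 (0 and 0) in the comparison of inputs and 98 and 25 (0 and 0) in the difference between the sexes. With only the arrays compared in the fit, they were 3931 and 4133 (5 and 0) in the comparison of inputs. With replicate number as a block, they were 961 and 510 (3 and 0) in the difference between the sexes. With the common floor, an alternative chosen after seeing the data, they were 716 and 455 (0 and 4) in the XY IP comparison, 1061 and 637 (0 and 0) in the XX IP comparison, 468 and 552 (5 and 0) in the comparison of inputs and 661 and 446 (4 and 0) in the difference between the sexes, where XX values at the floor leave little but the XY fall. Leaving out each array in turn gave 1746 to 2076 and 1054 to 2217 (0 to 1 and 2 to 5) in the XY IP comparison, 2513 to 2853 and 1463 to 2400 (0 to 2 and 1 to 2) in the XX IP comparison, 592 to 1527 and 494 to 1627 (5 to 6 and 0 to 0) in the comparison of inputs and 97 to 986 and 64 to 570 (1 to 3 and 0 to 0) in the difference between the sexes. A group left with 1 array is assumed to vary like the others. Of 572 values of single genes under an alternative, 477 kept their call and did not turn direction (with the common floor some of these became 0, which has none), 40 lost and 41 gained a call, and 14 turned direction. The last were Nr5a1 in the XY IP comparison (-0.37 with 50th percentile scaling), Cyp11a1 in the XX IP comparison (from -1.40 to 4.17 over the arrays left out, -0.66 with quantile normalization, -0.62 with 50th percentile scaling), Cyp17a1 in the XX IP comparison (-0.21 with quantile normalization, -0.21 with 75th percentile of probes above background on all arrays, -1.79 with 50th percentile scaling), Star in the XX IP comparison (-1.50 with quantile normalization, -1.06 with 50th percentile scaling), Insl3 or Jak3 in the XX IP comparison (-0.59 with quantile normalization) and Fdx1 in the difference between the sexes (-0.030 with 50th percentile scaling, and -0.44 to 0.67 over the arrays left out). The cause was not tested. The replicate block moved the counts of the difference between the sexes, and among the genes it added Cyp11a1 to those called lower in the XY IP (-3.19, limma adjusted p = 2.5e-07) and Fdx1 to those called higher in the XY input (1.46, limma adjusted p = 0.033). Scaling to the 50th percentile shifted the median of all probes to -1.90 in XY and -1.92 in XX, and raised the share of lower among called probes from 43.0% to 97.5% in XY and from 41.4% to 97.9% in XX. Leaving out the second XY IP raised the number of the 7 genes called lower in it to 5. The higher call of Nr5a1 in the XX IP was lost without the first XX input or the first XX IP. Signal over background limits the IPs, where 2 of the 7 genes were above background on both XY arrays and 1 on both XX arrays.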
